A study of Mus musculus with 9 samples.

Results

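The genes described here are the semaphorins, the plexins and the neuropilins, with the plexin domain containing proteins that share part of the plexin name. They were picked by symbol: every gene whose symbol begins with Sema3 to Sema7, Plxn or Plxdc, or is Nrp1 or Nrp2. That gave 34 of the 20603 genes in the count table: 20 semaphorins, 9 plexins, 2 neuropilins, 2 plexin domain containing proteins and 1 antisense RNA of a plexin gene, Plxna4os1. Of these, 33 had enough counts to be tested, among 15613 tested genes in all; Sema5b did not, with at most 10 counts in any library and 0 counts in 5 of the 9.

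Bulk messenger RNA of mouse conjunctiva, the mucous membrane of the eye and inner lids, was sequenced in 9 libraries, each from the tissue of 3 pooled mice. The challenged knockout pools (n = 3) came from Vegfr3iLECko mice, which are Vegfr3 fl/fl with prox1CreERT2, a tamoxifen-dependent Cre under the control of the Prox1 gene. The challenged control pools (n = 3) and the unchallenged control pools (n = 3) came from Vegfr3 fl/fl mice without the Cre. All mice were on a C57BL/6j background, had received tamoxifen at week 5 and had been immunized at week 6 with ovalbumin (OVA), pertussis toxin (PTX) and aluminum hydroxide; the challenged groups then had OVA eye drops daily for 28 days, a model of allergic eye disease. Saline went into the opposite eye; whether the unchallenged pools are those eyes or other mice is not stated. Prox1 is a defining gene of lymphatic endothelium and is also active in some other cell types, so the driver bounds where Vegfr3 could be deleted. Unchallenged knockout mice and mice with the Cre alone were not analysed here, so the deletion and the Cre cannot be told apart. The labels do not say that pools of different groups were independent animals, and p-values measure the spread between these pools.

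Semaphorins are secreted or membrane-bound guidance proteins, and plexins are their main receptors. Most secreted class 3 semaphorins bind a neuropilin, which forms a receptor complex with a class A plexin, whereas Sema3e binds plexin D1 directly. Neuropilins also bind vascular endothelial growth factors, and neuropilin 2 acts with VEGFR3 (the product of Vegfr3, listed as Flt4) on lymphatic endothelium. The family is known for steering axons, including corneal nerves, for patterning blood and lymphatic vessels, and, through members such as Sema4a, Sema4d and Sema7a, for contacts of immune cells.

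The libraries held 16490050 to 24746836 counts, of which the 34 genes took 0.258% to 0.298%. Values are given in CPM, counts scaled to library size after TMM adjustment; a count of 3 corresponded to 0.115 to 0.186 CPM. Values of a group follow the pool numbers, 1 to 3. The label of the tissue fitted its markers: all 11 conjunctival epithelium genes were found in every library, summing to 28578 to 54484 CPM in challenged knockout pools, 27746 to 46116 CPM in challenged control pools and 28408 to 45559 CPM in unchallenged control pools. Flt4, the targeted gene, had 13.0, 5.07 and 5.32 CPM in challenged knockout pools, 13.4, 20.3 and 20.1 CPM in challenged control pools and 18.5, 26.8 and 13.5 CPM in unchallenged control pools. Challenged knockout pool 1 lay close to the lowest control pools, and Flt4 did not pass the test between the challenged groups (log2 fold change -1.20, SE 0.40, edgeR adjusted p = 0.468). The counts cover the whole gene, so reads from outside the deleted part remain in them. Prox1 had 10.7, 7.55 and 14.2 CPM in challenged knockout pools, 6.31, 5.20 and 8.16 CPM in challenged control pools and 12.8, 7.89 and 8.82 CPM in unchallenged control pools, so the gene that drives the Cre was detected in every pool. Several lists of cell type markers moved with the groups or with single pools, and their values stand beside members.

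The conjunctiva held a broad set of these genes, led by 1 plexin. Levels between genes were compared as CPM per kilobase of exon, with the values averaged over the 9 libraries. Plxnb2, a class B plexin that serves as a receptor for class 4 semaphorins, stood at 126 CPM per kb, the 97.9th percentile of the 15305 tested genes with a length, and made up 65.3% to 72.9% of the summed plexin level in each library. Its lowest library (106 CPM per kb) lay above the highest library of the next gene, Sema3f (62.7 CPM per kb). Sema3f followed with a mean of 51.7 CPM per kb, then Sema4d with 34.6, Plxnb1 with 30.8, Sema4a with 25.5, Plxdc2 with 18.0 and Plxna1 with 15.2. Apart from Plxnb2, every gene's range over libraries overlapped that of the next gene in the order. At the low end stood Sema4f with 0.130, Plxnb3 with 0.0799 and Sema5b with 0.0147 CPM per kb. Both neuropilins lay in the middle, with 2.46 CPM per kb for Nrp1 and 2.22 for Nrp2.

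**Figure D1:**
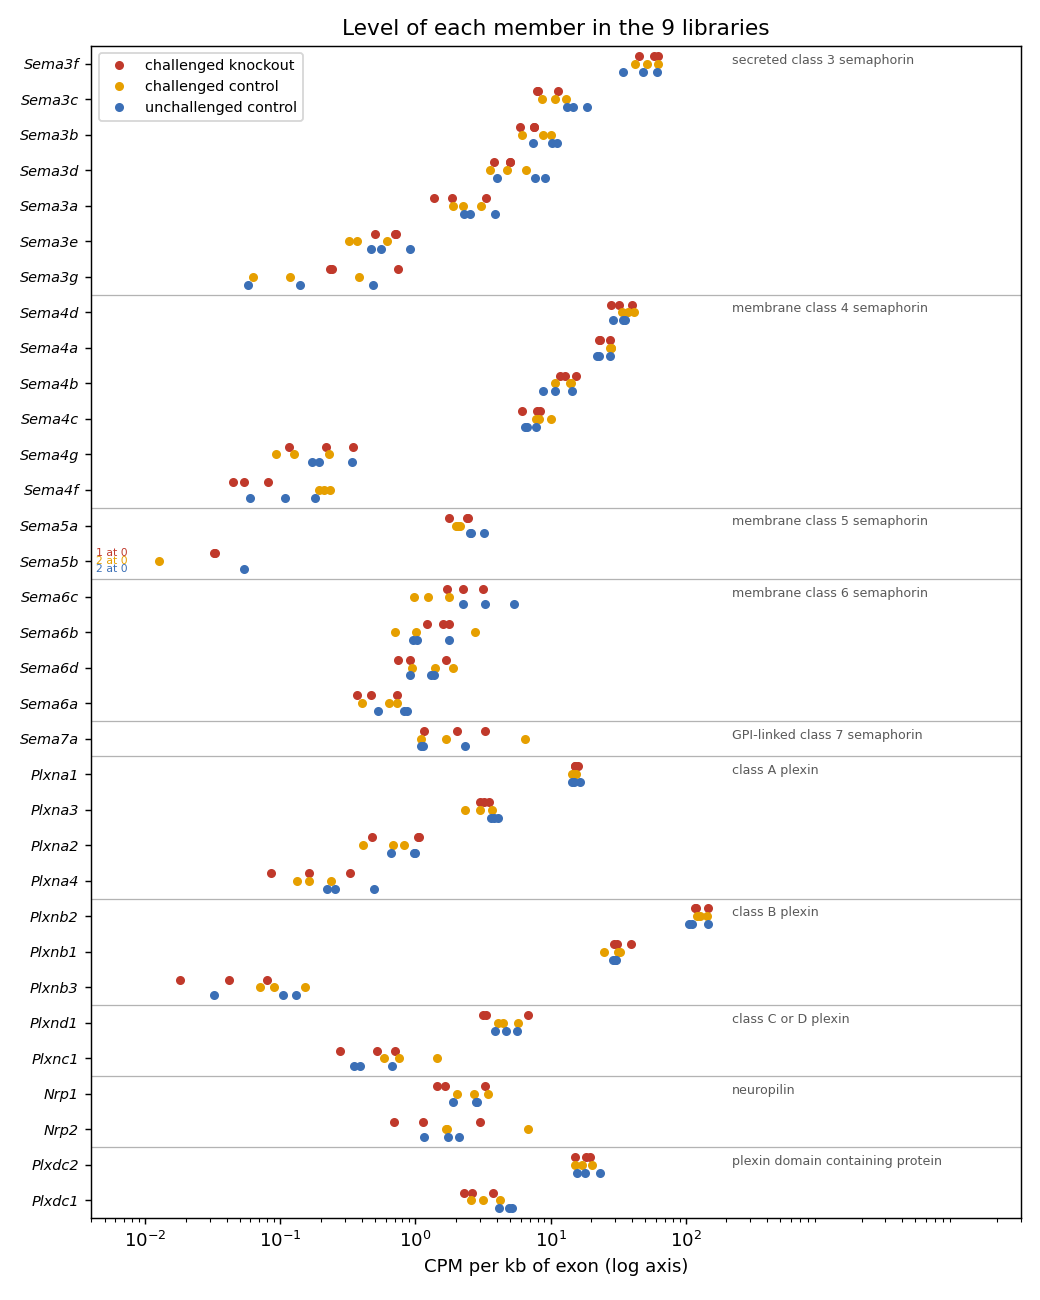
Level of 33 of the 34 genes (the antisense RNA Plxna4os1 is left out) in each of the 9 libraries, as CPM per kilobase of exon on a log axis, by role; colours mark the 3 groups, and libraries at 0 are counted at the left edge. Plxnb2 stands apart at the top with a mean of 126 CPM per kb, and within most rows the 3 groups are mixed.

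The balance between classes was similar in size across groups. The summed level of the 20 semaphorins was 168 ± 15.5 CPM per kb in challenged knockout pools, 177 ± 11.0 in challenged control pools and 171 ± 24.4 in unchallenged control pools (SD, n = 3 each). The summed level of the 9 plexins was 185 ± 13.0 CPM per kb in challenged knockout pools, 185 ± 15.9 in challenged control pools and 176 ± 22.2 in unchallenged control pools (SD, n = 3 each). For both sums the differences between group means were smaller than the spread of the unchallenged controls. Within class 3, Sema3f took 62.3%, 73.4% and 72.7% of the summed level in challenged knockout pools, 62.0%, 68.5% and 66.0% in challenged control pools and 49.1%, 60.9% and 60.4% in unchallenged control pools. Every challenged pool thus held a larger Sema3f share than every unchallenged one. The share was not tested, and it depends on the other class 3 genes as well as on Sema3f. Sema3f itself averaged 55.2, 51.9 and 48.1 CPM per kb in challenged knockout, challenged control and unchallenged control pools, with overlap of the groups. Of the 7 class 3 genes, 6 were lower in challenged than in unchallenged controls.

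No member passed the adjusted test (edgeR quasi-likelihood, Benjamini-Hochberg adjusted p under 0.05 over 15613 genes) in any of the 3 comparisons. For challenged control against unchallenged control, which asks what the OVA drops did in mice with intact Vegfr3, 0 of 33 members were called, against 0.064% of all genes (10 genes). For challenged knockout against challenged control, which asks what the deletion changed under challenge, 0 of 33 were called, and 0% of all genes. For challenged knockout against unchallenged control the counts were again 0 of 33 and 0%. At an unadjusted p under 0.05 the members counted 3, 2 and 2 in those comparisons, against 12.4%, 8.49% and 2.9% of all genes. Leaving out 1 library moved these counts, given here with the share of all genes. The first was 5 without challenged control pool 3 (11%). It was 2 without challenged control pool 1 (8.43%) or unchallenged control pool 3 (10.3%). The second was 6 without challenged knockout pool 1 (11.1%). It was 1 without challenged knockout pool 2 (6.6%) or unchallenged control pool 3 (8.27%). The third was 6 without challenged knockout pool 1 (7.76%), 1 without challenged knockout pool 3 (1.73%) and 4 without unchallenged control pool 1 (3.07%). The 6 of the second count were Nrp1, Nrp2, Plxnc1, Plxnd1, Sema4f and Sema6d, all lower in challenged knockout pools. DESeq2 called 1 member in the first comparison (Sema6c) and 0 in the others, against 4.66%, 1.58% and 0.089% of all genes; edgeR with a block for replicate number, fitted to all 9 libraries, called 0 members in each, against 1.71%, 0.141% and 0% of all genes. The 3 comparisons share groups with one another, so their values are not independent of each other.

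Directions were mixed in each comparison. With challenge in the controls, 16 were higher and 17 lower, with a median log2 fold change of -0.04; of all tested genes 48.5% were higher, with a median of -0.01. In challenged knockout against challenged control pools 14 were higher and 19 lower, with a median of -0.11, against 50.4% higher and a median of 0.00 for all genes. In challenged knockout against unchallenged control pools 12 were higher and 21 lower, with a median of -0.09, against 50.7% higher and a median of 0.00 for all genes. With upper quartile scaling the last split became 9 higher and 24 lower, and the first 14 and 19. The 95% interval of the fold change lay within a 2-fold change in both directions for 15, 18 and 17 of the 33 members in the 3 comparisons (56.9%, 57% and 60.2% of all genes), and for the others the interval reached beyond 2-fold.

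**Figure D2:**
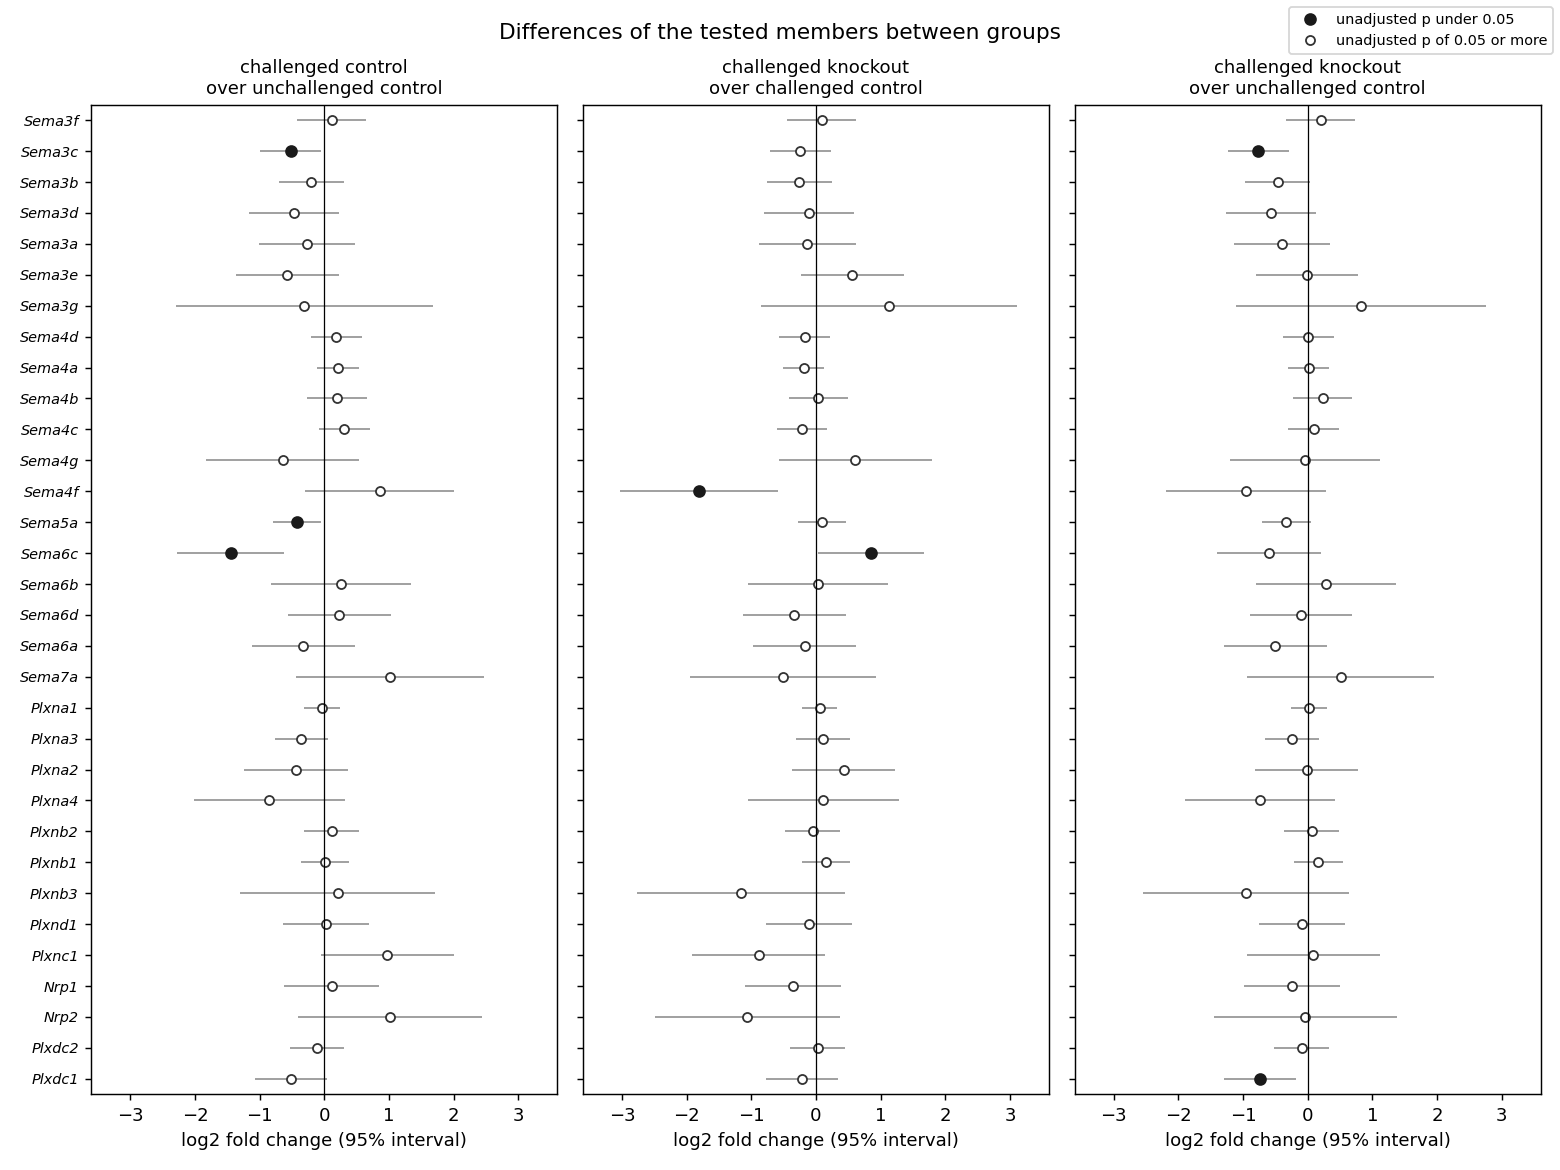
Log2 fold change with its 95% interval for the 32 tested protein-coding members, in 3 panels (challenged control over unchallenged control, challenged knockout over challenged control, challenged knockout over unchallenged control); filled points have an unadjusted p under 0.05. Sema6c at -1.45 and Sema4f at -1.81 lie farthest from 0 among the filled points of the first and second panel.

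Among the secreted class 3 ligands, 6 of 7 were lower and 1 higher in challenged than in unchallenged controls (median log2 fold change -0.31), and Sema3c was the only one with an unadjusted p under 0.05. Sema3c, a ligand of neuropilins known from heart outflow and vessel development, had 80.4, 57.0 and 57.6 CPM in challenged knockout pools, 76.9, 61.6 and 92.5 CPM in challenged control pools and 104.5, 94.2 and 132 CPM in unchallenged control pools. All 6 challenged pools lay below all 3 unchallenged ones, while the knockout and control pools under challenge overlapped. The log2 fold change was -0.52 (SE 0.21, unadjusted p = 0.0331, adjusted p = 0.334) for challenged over unchallenged controls and -0.76 (SE 0.21, unadjusted p = 0.00479, adjusted p = 0.999) for challenged knockout over unchallenged control. Summed fibroblast markers (8 of 8 genes found, none at 0) ranged over 3784 to 9092 CPM in challenged knockout pools, 7103 to 9977 CPM in challenged control pools and 7338 to 12389 CPM in unchallenged control pools; their part in the Sema3c values was not tested. In bulk tissue, fewer cells of a type and less RNA per cell cannot be told apart.

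Sema3f, the most abundant ligand, which signals through neuropilin 2 and repels axons and lymphatic endothelial cells in culture, had 235, 326 and 301 CPM in challenged knockout pools, 219, 268 and 323 CPM in challenged control pools and 179.6, 251 and 319 CPM in unchallenged control pools. The groups overlapped throughout, and the difference between challenged and unchallenged controls was 0.11 on the log2 scale, with a 95% interval of -0.42 to 0.64. Sema3a, which guides corneal and sensory nerves through neuropilin 1, averaged 30.3 ± 13.9 CPM in challenged knockout pools, 33.2 ± 8.13 CPM in challenged control pools and 39.9 ± 11.8 CPM in unchallenged control pools (SD, n = 3 each), differences within the spread of the pools. Sema3e, the plexin D1 ligand, averaged 5.93 ± 1.10 CPM in challenged knockout pools, 4.04 ± 1.45 CPM in challenged control pools and 6.00 ± 2.14 CPM in unchallenged control pools (SD, n = 3 each). Of the remaining class 3 genes, Sema3b and Sema3d averaged 33.4 to 59.1 CPM across the groups, and Sema3g was low, with 0.262 to 3.35 CPM over the 9 libraries.

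The membrane class 4 genes held the most abundant membrane ligands. Sema4d, known as CD100, a ligand of class B plexins on lymphocytes and epithelia, had 245, 309 and 213 CPM in challenged knockout pools, 261, 318 and 285 CPM in challenged control pools and 223, 263 and 274 CPM in unchallenged control pools. Its groups overlapped (log2 fold change 0.19 for challenged over unchallenged control and -0.17 for challenged knockout over challenged control, adjusted p = 0.780 and 0.795). Sema4a, a costimulatory ligand of dendritic cells and T cells, was the member with the tightest challenged control group: 126, 148 and 123 CPM in challenged knockout pools, 151.9, 149.4 and 151.6 CPM in challenged control pools and 119, 123 and 149.2 CPM in unchallenged control pools. The 3 challenged control pools lay above all other pools, by a small margin over the next. The log2 fold changes were 0.21 for challenged over unchallenged controls and -0.19 for challenged knockout over challenged control (adjusted p = 0.646 and 0.738). Summed dendritic cell markers (6 of 6 genes found, Ccr7 at 0 in 1 unchallenged pool) were also highest in challenged control pools. They stood at 741, 923 and 662 CPM in challenged knockout pools, 2586, 1546 and 1716 CPM in challenged control pools and 856, 514 and 501 CPM in unchallenged control pools. Most of each sum came from Cd74 and H2-Ab1 (1811 and 733 CPM in challenged control pool 1). Both of these and Itgax were higher in every challenged control pool than in all other pools, whereas Flt3 and Zbtb46 overlapped. Ccr7 was higher in every challenged control pool (1.84 to 7.67 CPM) than in all unchallenged ones (at most 1.05 CPM). It overlapped between the challenged groups. Zbtb46 had 2.69 and 2.11 CPM in challenged control pools 2 and 3, below all unchallenged pools (2.99 to 3.73 CPM). Within the unchallenged group, pool 3 was highest in Sema4a and lowest in the sum. The part of the list in the Sema4a values was not tested. Sema4b and Sema4c averaged 63.8 to 74.9 CPM and 32.1 to 39.9 CPM across the groups, and Sema4g 1.29 to 2.03 CPM.

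Sema4f, a membrane ligand best known from neurons and glia, was scarce and had the lowest p-value of the family between the challenged groups. For this gene and for Sema6c, which had the lowest p-value with challenge, the 250 bases before the annotated start are printed here so that the region under discussion can be seen; they come from RefSeq's annotation of GRCm38.p6, a build other than the mm39 named by the submitters. The Sema6c window is chr3:95160170-95160419 on the plus strand (1 of 2 windows listed for the gene), and that of Sema4f is chr6:82939770-82940019 on the minus strand. In a check against GENCODE M21, 2 Sema4f transcripts began in the region listed for that gene. For Sema6c the check found 0, so its start rests on RefSeq alone. Capitals mark CCAAT boxes on either strand, the motif bound by the factor NF-Y, which read ATTGG on the reverse strand.
Sema6c: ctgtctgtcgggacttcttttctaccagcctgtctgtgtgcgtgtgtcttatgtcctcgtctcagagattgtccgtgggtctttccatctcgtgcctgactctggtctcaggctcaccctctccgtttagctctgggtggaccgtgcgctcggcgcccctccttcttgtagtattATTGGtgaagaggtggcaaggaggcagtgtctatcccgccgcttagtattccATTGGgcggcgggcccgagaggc
Sema4f: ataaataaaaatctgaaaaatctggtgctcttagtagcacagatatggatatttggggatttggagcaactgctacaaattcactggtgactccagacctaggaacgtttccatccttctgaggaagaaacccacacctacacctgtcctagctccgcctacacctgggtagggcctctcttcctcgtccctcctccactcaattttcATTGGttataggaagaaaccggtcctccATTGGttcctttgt
Each of these windows held 2 CCAAT matches. Over all 32851 windows of this length, 33.8% held CCAAT on either strand, as did 7 of the 37 windows found for 26 of the members. GGGCGG, the core of the GC box, occurred in 32.7% of all windows and in 27 of the 37; 1 match in the Sema6c window overlaps its second CCAAT match, and the Sema4f window held none. TATAAA and TTCNNNGAA, the spaced motif bound by STAT factors, occurred in 12.4% and 7.02% of all windows and in 0 of the 37. A match is a run of letters, not a site of binding, and these data hold no measure of binding.

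Sema4f had 11, 4 and 5 counts in challenged knockout pools, 20, 25 and 18 counts in challenged control pools and 11, 25 and 6 counts in unchallenged control pools. That is 0.428, 0.236 and 0.286 CPM in challenged knockout pools, 1.24, 1.12 and 1.03 CPM in challenged control pools and 0.576, 0.957 and 0.315 CPM in unchallenged control pools. All challenged control pools lay above all other pools, and 2 of the 3 knockout pools lay below every unchallenged one. Challenged knockout over challenged control gave a log2 fold change of -1.81 (SE 0.55, unadjusted p = 0.00827, adjusted p = 0.422), and that of challenged control over unchallenged control was 0.86 (SE 0.52, adjusted p = 0.590). Levels this low carry a large counting error. Summed T cell markers (10 of 10 genes found, none at 0) stood at 28.2 to 39.0 CPM in challenged knockout pools, 96.1 to 193 CPM in challenged control pools and 15.5 to 25.6 CPM in unchallenged control pools. The lowest T cell sum, 15.5 CPM, was that of unchallenged control pool 2, the highest of its group in Sema4f. Summed Schwann cell and nerve markers (9 of 9 genes found, none at 0, mostly Mbp) overlapped between groups. They stood at 346 to 420 CPM in challenged knockout pools, 272 to 390 CPM in challenged control pools and 287 to 435 CPM in unchallenged control pools. The part of both lists in the Sema4f values was not tested.

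The groups of some members did not overlap. With challenge in the controls there were 5 such members of 33 (15.2%), against 15.7% of all genes: Sema3c, Sema5a and Sema6c were lower and Sema4a and Sema4f higher in the challenged pools. Between the challenged groups there were 2 (6.06%), Sema4a and Sema4f, both lower in knockout pools, against 12.9% of all genes. In challenged knockout against unchallenged control pools there were 4 (12.1%), Plxdc1, Plxna3, Sema3c and Sema5a, all lower, against 6.59% of all genes.

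Sema6c, a membrane semaphorin of the class whose members bind class A plexins, showed the largest difference with challenge. It had 18.9, 13.4 and 10.1 CPM in challenged knockout pools, 5.75, 10.5 and 7.30 CPM in challenged control pools and 13.4, 31.5 and 19.3 CPM in unchallenged control pools. The challenged control pools lay below all unchallenged ones, and the knockout pools lay between, overlapping both. Challenged control over unchallenged control gave a log2 fold change of -1.45 (SE 0.37, unadjusted p = 0.00301, adjusted p = 0.136), and that of challenged knockout over challenged control was 0.85 (SE 0.37, unadjusted p = 0.0437, adjusted p = 0.573). Other fits of the challenge comparison did call it: DESeq2 gave an adjusted p of 0.00719, and edgeR on the 2 control groups with the replicate number as a block, which called 3.12% of all genes, gave 0.0210 with a log2 fold change of -1.41. Over all 9 libraries the block gave Sema6c an adjusted p of 0.0690.

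The values of a marker list of another tissue are set beside those of Sema6c. The 11 skeletal muscle genes found of 12 listed (Tnnc2 was not among the symbols; none of the 11 was at 0) summed to 3097, 2525 and 3945 CPM in challenged knockout pools, 1025, 744 and 368 CPM in challenged control pools and 1713, 5959 and 2953 CPM in unchallenged control pools. All 11 were lower in challenged than in unchallenged controls and higher in challenged knockout than in challenged control pools, each at an unadjusted p under 0.05 and none after adjustment. The pool with the highest Sema6c, unchallenged control pool 2, was also the highest in muscle genes. Within both challenged groups the order differed. Challenged control pool 1 and challenged knockout pool 3 were each lowest of their group in Sema6c and highest of it in muscle genes. Adipocyte markers (7 of 7 genes found; Adipoq, Plin1, Lep, Cidec and Pck1 at 0 in some libraries) summed to 20.7, 13.4 and 7.09 CPM in challenged knockout pools, 5.57, 4.53 and 1.43 CPM in challenged control pools and 43.3, 76.9 and 5.20 CPM in unchallenged control pools. The part of both lists in the Sema6c values was not tested.

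**Figure D3:**
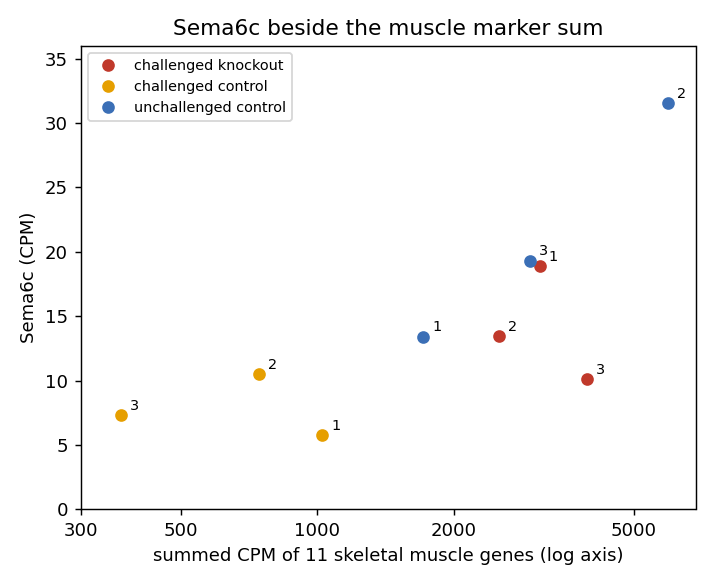
Sema6c in CPM against the summed CPM of 11 skeletal muscle genes (log axis) in the 9 libraries, with the replicate number beside each point and the 3 groups in colour. The 3 challenged control pools lie at the lower left, at 5.75 to 10.5 CPM of Sema6c and 368 to 1025 CPM of muscle genes, with knockout pool 3 as low in Sema6c (10.1 CPM) at a high muscle sum (3945 CPM).

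The remaining membrane ligands are those of class 5, the other class 6 genes and Sema7a. Sema5a, a ligand with thrombospondin repeats that acts on axons and endothelium, had 45.2, 32.9 and 45.3 CPM in challenged knockout pools, 37.3, 40.2 and 38.3 CPM in challenged control pools and 59.8, 47.2 and 48.4 CPM in unchallenged control pools. Each unchallenged pool lay above every challenged pool of either genotype, and the log2 fold change of challenged over unchallenged controls was -0.42 (SE 0.17, unadjusted p = 0.0317, adjusted p = 0.327). Sema6a, Sema6b and Sema6d averaged 4.58 to 14.9 CPM across the groups, with overlap throughout. Sema7a, a GPI-anchored ligand of plexin C1 and of integrins, had 10.8, 6.72 and 3.83 CPM in challenged knockout pools, 21.4, 5.56 and 3.65 CPM in challenged control pools and 3.77, 7.62 and 3.62 CPM in unchallenged control pools. Its high mean in challenged controls was that of pool 1: the log2 fold change over unchallenged controls was 1.02 (SE 0.65, adjusted p = 0.620), and -0.12 without that pool.

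Of the receptors, the abundant class A and class B plexins varied little. Plxna1, a signalling partner of the neuropilins, had 137, 138 and 144 CPM in challenged knockout pools, 131, 134 and 138 CPM in challenged control pools and 131, 135 and 149.1 CPM in unchallenged control pools. Its pooled within-group SD, 0.07 on the log2 scale, lay at the 0.423rd percentile of the tested genes, whose median was 0.32. Challenged over unchallenged controls gave a log2 fold change of -0.04 with a 95% interval of -0.31 to 0.24, and that of challenged knockout over challenged control was 0.06 (-0.22 to 0.33). Plxnb2 had 897, 1118 and 917 CPM in challenged knockout pools, 934, 990.3 and 1112 CPM in challenged control pools and 818, 861 and 1127 CPM in unchallenged control pools, with overlap of all groups and a log2 fold change of 0.11 (95% interval -0.31 to 0.53) for challenged over unchallenged controls. Plxnb1, the Sema4d receptor, averaged 318 ± 50.8 CPM in challenged knockout pools, 286 ± 39.9 CPM in challenged control pools and 284 ± 7.25 CPM in unchallenged control pools (SD, n = 3 each). All 4 class A plexins were lower in challenged than in unchallenged controls and higher in challenged knockout than in challenged control pools, none at an unadjusted p under 0.05. Plxna3 averaged 25.6 ± 2.05 CPM in challenged knockout pools, 23.7 ± 5.36 CPM in challenged control pools and 30.3 ± 1.61 CPM in unchallenged control pools (SD, n = 3 each).

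Plxnd1, the plexin of vascular endothelium, had 49.5, 24.4 and 23.1 CPM in challenged knockout pools, 29.9, 42.2 and 32.6 CPM in challenged control pools and 34.1, 41.1 and 28.2 CPM in unchallenged control pools. The knockout pools held both the highest value, in pool 1, and the lowest ones, in the other two. Knockout pool 1 was also highest in the summed blood endothelium markers (11 of 11 genes, none at 0), which stood at 384, 167 and 228 CPM in challenged knockout pools, 175, 202 and 156 CPM in challenged control pools and 253, 372 and 225 CPM in unchallenged control pools. Its lead over unchallenged control pool 2 was small. Of the list, only Pecam1, Emcn, Vwf and Plvap were highest in knockout pool 1, and each of the others was higher in another pool. Knockout pool 1 stood further apart in Meibomian gland markers (6 of 6 genes found, Scd3 and Elovl3 at 0 in some libraries), with 363, 24.8 and 19.4 CPM in challenged knockout pools, 52.3, 43.4 and 31.2 CPM in challenged control pools and 33.6, 31.9 and 24.3 CPM in unchallenged control pools. Plxnd1 gave a log2 fold change of -0.11 for challenged knockout over challenged control (adjusted p = 0.927) and -0.55 without knockout pool 1 (adjusted p = 0.430). The part of these markers in the Plxnd1, Nrp1 and Nrp2 values of that pool was not tested. Plxnc1, the Sema7a receptor of leukocytes, had 2.29 to 5.84 CPM in challenged knockout pools, 12.0, 6.27 and 4.85 CPM in challenged control pools and 2.91 to 5.60 CPM in unchallenged control pools. Its log2 fold change with challenge was 0.98 (SE 0.46, adjusted p = 0.438). Plxna2, Plxna4 and Plxnb3 averaged 11.0 to 15.0, 2.51 to 4.53 and 0.302 to 0.676 CPM across the groups. The antisense RNA Plxna4os1 lies within Plxna4 on the opposite strand and shares 0 exonic bases with it in GENCODE M21; it had 11, 6 and 1 counts in challenged knockout pools, 11, 4 and 4 counts in challenged control pools and 12, 15 and 0 counts in unchallenged control pools. No source gives the strand of the libraries, so reads of overlapping opposite genes could not be separated; this touches Plxna1, Plxnb1 and Sema4c too, which share exonic bases with an antisense gene of the table.

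The neuropilins bear most directly on the pathway that was deleted. Nrp2, the co-receptor of VEGFR3 and receptor of Sema3f, had 35.8, 13.4 and 8.18 CPM in challenged knockout pools, 79.9, 20.1 and 20.1 CPM in challenged control pools and 20.5, 25.0 and 13.6 CPM in unchallenged control pools. A single library, challenged control pool 1, stood far above the other 8. The log2 fold change was 1.02 (SE 0.64, adjusted p = 0.608) for challenged over unchallenged control and -1.06 (SE 0.64, adjusted p = 0.692) for challenged knockout over challenged control. Without challenged control pool 1 they became 0.03 and -0.07, and without challenged knockout pool 1 the second became -1.89 (adjusted p = 0.402). The within-group spread of Nrp2, an SD of 0.93 on the log2 scale, lay at the 97.1st percentile of tested genes. Summed lymphatic endothelium markers (7 of 7 genes found, none at 0, Flt4 among them) were 461, 377 and 375 CPM in challenged knockout pools. They were 391, 429 and 453 CPM in challenged control pools and 511, 494 and 399 CPM in unchallenged control pools. Knockout pool 1 led its group in both Nrp2 and this sum, whereas challenged control pool 1 was lowest of its group in the sum. The part of this list in the Nrp2 values was not tested.

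Nrp1, the receptor of Sema3a and co-receptor of VEGFR2, had 32.1, 16.3 and 14.1 CPM in challenged knockout pools, 26.7, 33.4 and 19.8 CPM in challenged control pools and 27.3, 27.9 and 18.7 CPM in unchallenged control pools. In the knockout group, pools 2 and 3 lay below every control pool and pool 1 near the top of them. The log2 fold change of challenged knockout over challenged control was -0.35 (SE 0.33, adjusted p = 0.781), with -0.81 without knockout pool 1 (unadjusted p = 0.0168, adjusted p = 0.402), -0.20 without knockout pool 2 and -0.14 without knockout pool 3. That of challenged over unchallenged controls was 0.11 (SE 0.33, adjusted p = 0.954). Per kilobase, Nrp2 exceeded Nrp1 in challenged control pool 1 alone, with a ratio of 2.47, against 0.480 to 0.920 in the other 8 libraries.

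Challenged control pool 1 recurred among the extremes. It held the highest value of the 9 libraries for 10 of the 33 members, Nrp2, Plxna4os1, Plxnb3, Plxnc1, Sema4a, Sema4c, Sema4f, Sema6b, Sema6d and Sema7a, and for 22.3% of all tested genes; it held the lowest for 4 members and 21.4% of genes. The same pool was highest in summed macrophage and monocyte markers (11 of 11 genes, none at 0; 899, 623 and 633 CPM in challenged knockout pools, 1350, 1083 and 725 CPM in challenged control pools and 840, 756 and 588 CPM in unchallenged control pools). It was also highest in T cell markers (193 CPM) and in dendritic cell markers (2586 CPM). The part of these 3 lists in the values of that pool was not tested. The lowest value fell to challenged knockout pool 3 for 9 members and to challenged knockout pool 2 for 7, against 12.3% and 9.72% of all genes.

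**Figure D4:**
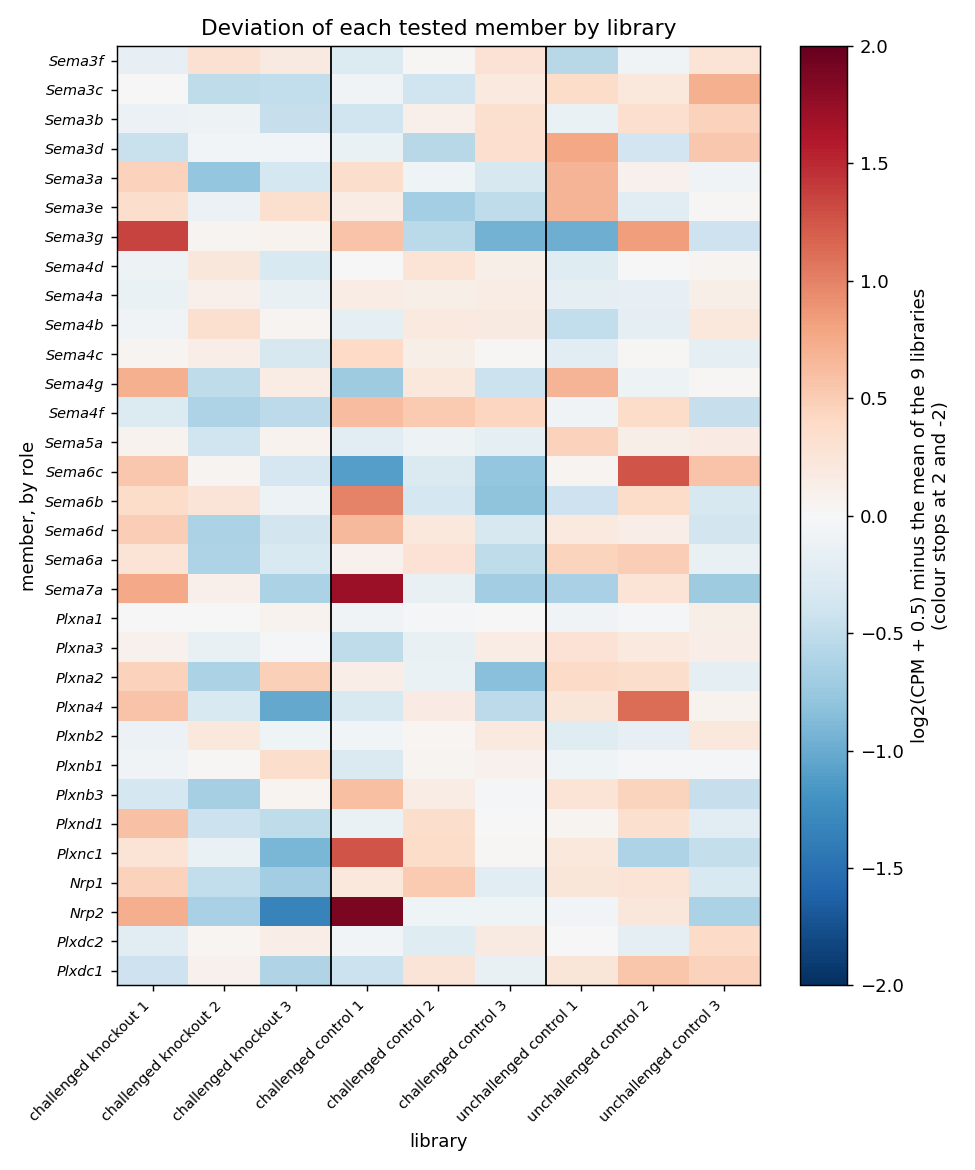
Deviation of each tested protein-coding member in each library from its mean over the 9 libraries, on the log2(CPM + 0.5) scale, with rows by role and the groups side by side; colour stops at 2 and -2. Nrp2 and Sema7a stand out in challenged control pool 1 (79.9 and 21.4 CPM), and the rows of Plxna1 and Plxnb2 are nearly blank.

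The plexin domain containing proteins are transmembrane proteins named for a short stretch shared with plexins and not known as semaphorin receptors. Plxdc1, also called tumor endothelial marker 7, had 12.6, 18.0 and 11.0 CPM in challenged knockout pools, 12.6, 20.4 and 15.2 CPM in challenged control pools and 20.2, 25.2 and 23.7 CPM in unchallenged control pools. All knockout pools lay below all unchallenged ones, whereas 1 challenged control pool overlapped them. The log2 fold change of challenged knockout over unchallenged control was -0.73 (SE 0.25, unadjusted p = 0.0154, adjusted p = 0.999), and that of challenged over unchallenged controls was -0.52 (SE 0.25, adjusted p = 0.452). Plxdc2, its more abundant relative, had 106, 128 and 136 CPM in challenged knockout pools, 119, 104.5 and 140.2 CPM in challenged control pools and 124, 109 and 161 CPM in unchallenged control pools, with overlap of all groups (log2 fold change 0.02, SE 0.19, adjusted p = 0.979 for challenged knockout over challenged control).

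**Figure D5:**
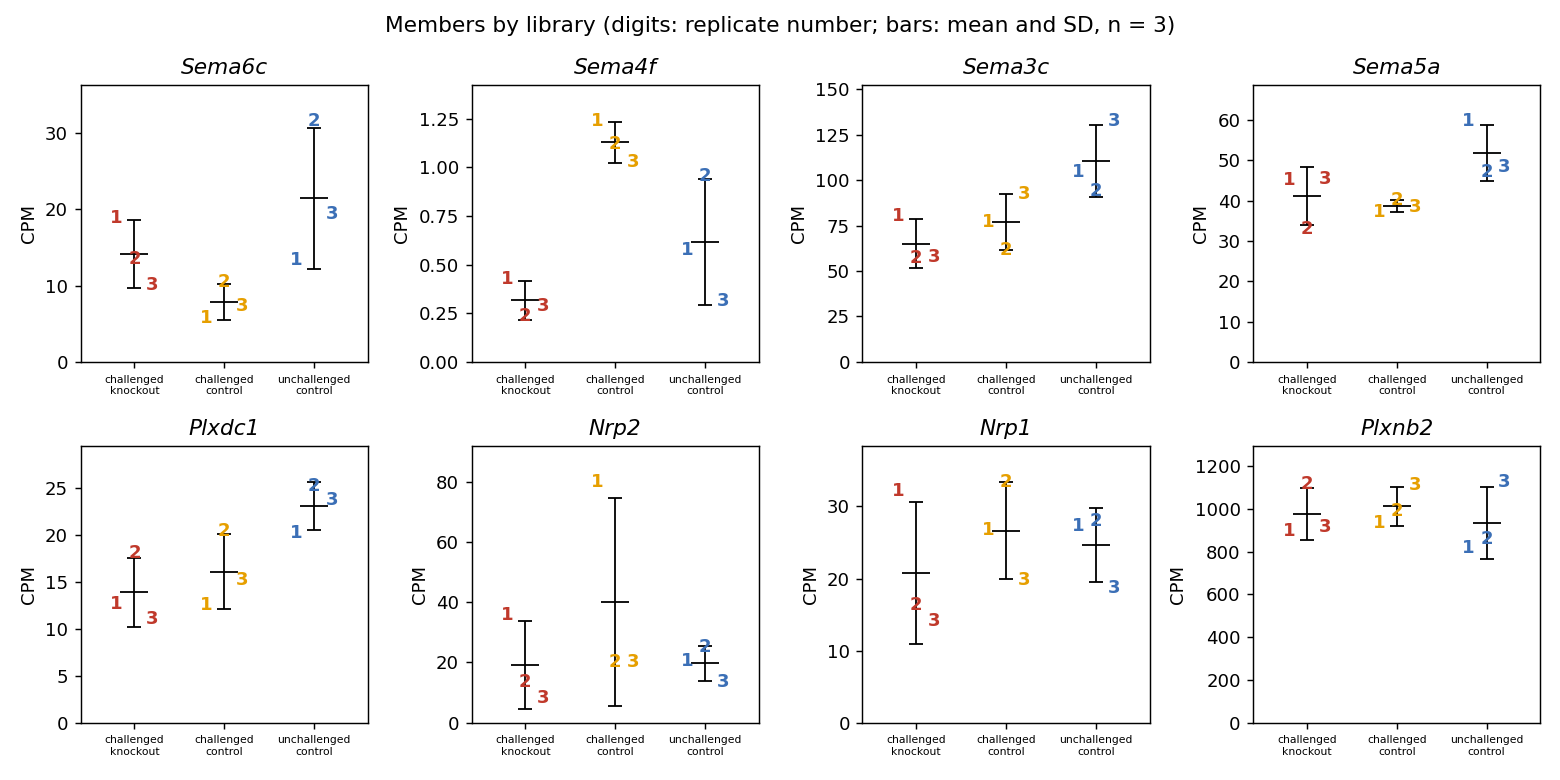
CPM of 8 members in each library (digits give the replicate number) with the mean and SD of each group (n = 3). In Nrp2 the mean of challenged controls is set by pool 1 at 79.9 CPM, in Sema6c and Sema3c the unchallenged controls reach the highest values, and in Plxnb2 the groups overlap.

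Genes that work with the family gave a similar picture. Of 13 tested co-receptors and other semaphorin receptors, 9 were higher and 4 lower in challenged than in unchallenged controls, and 0 passed the adjusted test. Tyrobp, the adaptor of myeloid receptors that also serves plexin A1 complexes, had 25.0, 15.6 and 17.6 CPM in challenged knockout pools, 33.0, 26.4 and 18.0 CPM in challenged control pools and 17.4, 12.6 and 9.50 CPM in unchallenged control pools (log2 fold change 0.97 for challenged over unchallenged controls, SE 0.30, adjusted p = 0.208). Of 34 tested cytoplasmic effectors, 18 were higher and 16 lower with challenge, and 14 higher and 20 lower in challenged knockout against challenged control pools, with 0 passing. Fes, a tyrosine kinase downstream of plexin A1, had 23.7, 26.5 and 20.0 CPM in challenged knockout pools, 32.0, 37.0 and 36.4 CPM in challenged control pools and 21.9, 24.5 and 22.9 CPM in unchallenged control pools. The challenged control pools lay above all other pools, with log2 fold changes of 0.61 (SE 0.16, adjusted p = 0.144) over unchallenged controls and, for challenged knockout over challenged control, -0.59 (SE 0.16, adjusted p = 0.364).

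Crmp1, a collapsin response mediator of Sema3a signalling, had 1.40, 0.885 and 0.858 CPM in challenged knockout pools, 4.02, 2.24 and 3.42 CPM in challenged control pools and 1.26, 1.53 and 1.68 CPM in unchallenged control pools. Here too the challenged control pools lay above all other pools, with a log2 fold change of -1.61 (SE 0.39, adjusted p = 0.338) for challenged knockout over challenged control. The summed T cell markers (96.1 to 193 CPM in challenged control pools, at most 39.0 CPM in the other pools) and the summed dendritic cell markers (1546 to 2586 CPM in challenged control pools, at most 923 CPM in the others) were likewise highest in challenged controls. The dendritic cell sum was mostly Cd74 and H2-Ab1. Zbtb46 and Flt3 of that list overlapped between groups. Ccr7 was higher in every challenged control pool than in all unchallenged ones and overlapped between the challenged groups. The macrophage and monocyte markers had 1 challenged control pool, at 725 CPM, below other pools. The part of these lists in the Tyrobp, Fes and Crmp1 values was not tested. Rnd1, a small GTPase that binds plexins, had 62.1 CPM in challenged control pool 1 and at most 1.17 CPM in the other 8 libraries; its log2 fold change of 6.24 for challenged over unchallenged controls was -0.11 without that pool. Among the 8 VEGF ligands and receptors that use neuropilins, 7 were lower and 1 higher in challenged than in unchallenged controls. In challenged knockout against challenged control pools 5 were higher and 3 lower. In challenged knockout against unchallenged control pools 7 were lower and 1 higher. Of all genes, 48.5%, 50.4% and 50.7% were higher in these 3 comparisons, in that order, and 0 of the 8 passed in any. Flt4 had the lowest p-value of them in the last comparison, with a log2 fold change of -1.32 (SE 0.40, adjusted p = 0.999).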

How the data were processed

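The authors deposited raw read counts by gene symbol, 1 table for 9 libraries. HISAT2, Bowtie2, DESeq2 and build mm39 are named, per the submitters' processing notes; the counting program, its annotation and the strand were not given in the sources used here. Counts were filtered with filterByExpr, scaled by TMM and fitted with edgeR 4.0.16 (quasi-likelihood, 1 mean per group over all 9 libraries, Benjamini-Hochberg over 15613 genes; biological coefficient of variation 31.7%), in R 4.3.3. Exon lengths came from GENCODE M21 (97.3% of symbols) and promoters from RefSeq (GRCm38.p6). DESeq2 1.42.0, limma voom 3.58.1, other scalings and filters, a replicate block and each library left out were alternatives. Same-numbered pools of the 2 control groups deviated together (correlations 0.480, 0.273 and 0.527), while challenged knockout and challenged control pools gave 0.338, -0.168 and 0.353, so the block was also run in the controls alone. Members and lists were chosen with earlier results of these data known. Every library's value is given for both neuropilins, members with an unadjusted p under 0.05 and the most abundant member of each class; pathway genes are named at p under 0.01. No 2 libraries were copies. The procedure was also run on simulated counts, drawn independently for each library, with no outlier pool and no link between same-numbered pools. That run does not bear on those features of these data.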

Additional observations from a re-analysis of the deposited data

How the results depend on the processing

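No named member reversed its direction while past a threshold. The number of members called with challenge was 0, and 1 (Sema6c) under DESeq2 and under the replicate block in the 2 control groups, an alternative added after seeing the data. Over all genes, challenge called 10, but 20 with no filter on low counts, 6 with limma voom, 1 with the 2 groups alone, 770 with DESeq2, 267 with the replicate block and 476 with the block in the 2 control groups; leaving out 1 library gave 0 to 121 (0 without unchallenged control replicate 2 or 3, 121 without unchallenged control replicate 1). Challenged knockout against challenged control called 0, but 242 with DESeq2 and 22 with the block; challenged knockout against unchallenged control called 0, but 14 with DESeq2. The cause of these differences was not tested. Leaving out 1 library called 0 members in every comparison, and the block changed no other call of a member. For scarce genes such as Sema4f, Plxnb3 and Sema5b the depth limits what can be seen.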
